A study of Caenorhabditis elegans with 2 samples.

Results

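Divergent promoters are stretches of sequence that lie upstream of 2 neighbouring genes transcribed away from each other. The regions described here are the LIN-13 peaks at such promoters. A peak was counted when its summit, the position of strongest enrichment given in the deposited list, lay within 1000 bp upstream to 200 bp downstream of the outermost annotated start of at least 1 protein-coding gene on each strand. Of 3013 peaks on nuclear chromosomes in the thresholded list, 571 met this rule (19.0%, Wilson 95% interval 17.6 to 20.4). They made up 33.1% (interval 30.9 to 35.3) of the 1727 peaks in any promoter window. The other 1156 promoter peaks lay in the windows of genes on 1 strand and are called one-strand peaks below, and 1286 peaks lay outside promoter windows.

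LIN-13 was mapped by chromatin immunoprecipitation and sequencing (ChIP-seq) in strain OP49 of Caenorhabditis elegans, which has the unc119(ed3) allele and an inserted array, wgIs49, with lin-13 fused to TY1 EGFP FLAG together with unc119. The samples were whole L2 larvae of mixed sex, in 1 group of 2 biological replicates, so all material carried both the allele and the tagged transgene. The transgene adds lin-13 copies, and a peak from a whole larva averages over its tissues, so cell types cannot be told apart. The labels point to a control experiment, which was not analysed here, and the peak lists hold no read counts, so depth is unknown.

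LIN-13 is a large zinc-finger protein with a motif for binding the retinoblastoma protein, and it belongs to the synMuv B class of chromatin regulators, which repress vulval fate and keep germline genes off in somatic cells. Several other synMuv B proteins form the DREAM complex, which binds promoters of cell-cycle and other widely used genes. In a compact genome such as that of C. elegans, neighbouring genes often face away from each other across a short intergenic stretch that holds the promoters of both. The pre-mRNAs of many worm genes are trans-spliced to a leader, so an annotated start can be the splice acceptor rather than the site where transcription begins.

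The intergenic stretches below, from the base after one annotated start to the base before the other, show how little sequence separates such gene pairs and where motif matches fell in it. They belong to 5 of the 6 strongest divergent peaks on chromosomes II to V and X that lay between starts 60 to 300 bp apart, and were read from the RefSeq WBcel235 genome, plus strand, 5′ to 3′, with the minus-strand gene's start at the left. Capitals mark matches, on either strand, to the motifs counted further on.
rps-22 / polh-1, III:1950270-1950534: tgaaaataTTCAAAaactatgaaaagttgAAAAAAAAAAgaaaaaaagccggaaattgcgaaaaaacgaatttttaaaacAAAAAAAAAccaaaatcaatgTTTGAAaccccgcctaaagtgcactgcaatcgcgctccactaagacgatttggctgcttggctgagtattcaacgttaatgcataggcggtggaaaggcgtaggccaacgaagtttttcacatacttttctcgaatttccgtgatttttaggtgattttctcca
eef-1G / ctf-4, V:10965540-10965718: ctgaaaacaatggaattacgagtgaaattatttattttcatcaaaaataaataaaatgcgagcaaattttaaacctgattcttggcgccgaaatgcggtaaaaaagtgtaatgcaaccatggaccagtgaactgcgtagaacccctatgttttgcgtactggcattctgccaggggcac
C24H12.4 / dnsn-1, II:410933-411221: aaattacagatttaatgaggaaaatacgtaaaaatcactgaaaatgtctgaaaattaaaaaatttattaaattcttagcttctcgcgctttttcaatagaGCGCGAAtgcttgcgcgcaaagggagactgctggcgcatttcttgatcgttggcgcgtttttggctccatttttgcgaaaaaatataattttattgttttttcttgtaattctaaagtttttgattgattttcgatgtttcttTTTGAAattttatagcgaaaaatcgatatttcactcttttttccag
pdtf-1 / T26A8.4, IV:8432894-8433037: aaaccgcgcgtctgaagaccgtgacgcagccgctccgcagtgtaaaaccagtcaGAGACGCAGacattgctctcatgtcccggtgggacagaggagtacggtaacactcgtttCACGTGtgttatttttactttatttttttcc
C07H6.2 / cux-7, III:7520846-7521008: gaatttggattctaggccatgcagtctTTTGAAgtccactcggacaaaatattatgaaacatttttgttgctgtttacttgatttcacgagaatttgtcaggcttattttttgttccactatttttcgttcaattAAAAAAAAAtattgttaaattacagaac

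The first stretch separates rps-22, a small-subunit ribosomal protein gene, from polh-1, a translesion DNA polymerase gene. Its summit was base 138 of the 265 printed, close to the middle, and the peak ranked 62 in replicate 1 and 78 in replicate 2 among the 30000 entries of each list. It holds CHR letters (TTTGAA) on both strands and 2 runs of A. The second, between the translation elongation factor gene eef-1G and the replisome gene ctf-4, holds none of the motifs searched, and its peak ranked 102 and 94 in the replicates. The third, between C24H12.4 and dnsn-1, holds 1 E2F-like match (GCGCGAA) to the left of its summit base, 128, and 1 CHR match to the right. The fourth, between pdtf-1 and T26A8.4, is the richest in G and C of the 5 (50%, against 30.1 to 39.1% in the others) and holds the letters CTGCGTCTC, read on the minus strand, and an E-box (CACGTG). In the last, between C07H6.2 and cux-7, the summit was base 4, at the minus-strand start of cux-7, so a strong peak between starts was not always near the middle.

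The first question was how often LIN-13 peaks fell at divergent promoters for the sequence these promoters occupy. Sequence inside the windows of both strands covered 2.09 Mb, or 2.09% of the 100.3 Mb nuclear genome, and held 272.9 thresholded summits per Mb. One-strand promoter sequence covered 19.4 Mb and held 59.5 per Mb, and the remaining 78.8 Mb held 16.3 per Mb. The density at divergent promoters was thus 4.59 times that at one-strand promoters, which was 3.64 times that elsewhere. The replicate lists gave like values on their own: of the strongest 3013 nuclear entries, 569 (18.9%) of replicate 1 and 558 (18.5%) of replicate 2 were divergent.

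The higher density was seen among strong entries. Each full list was filled up to 30000 entries, and the 29973 nuclear entries of the pooled list include 1118 at divergent promoters. Of those 1118, 51.1% (interval 48.1 to 54.0) were in the thresholded list, against 16.9% (16 to 17.8) of 6844 one-strand entries and 5.84% (5.54 to 6.16) of 22011 entries elsewhere. Over all pooled nuclear entries the share was 10.1%. Pooled entries that were not in the thresholded list had similar densities in the 3 kinds of sequence, 261.4, 292.8 and 263.2 per Mb. Among the 500 strongest nuclear entries, 32.2% were divergent in the pooled list, 30.8% in replicate 1 and 31.0% in replicate 2. In each list the share fell from bin to bin down to rank 3000, where it was 9.20%, 11.4% and 9.0%. In the pooled list it was 6.25% at ranks 3001 to 5000, 3.14% at 5001 to 10000 and 1.34% from rank 10001 on. Divergent sequence was 2.09% of the genome, so the raised share went on below the thresholded entries and was lost further down.

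**Figure D1:**
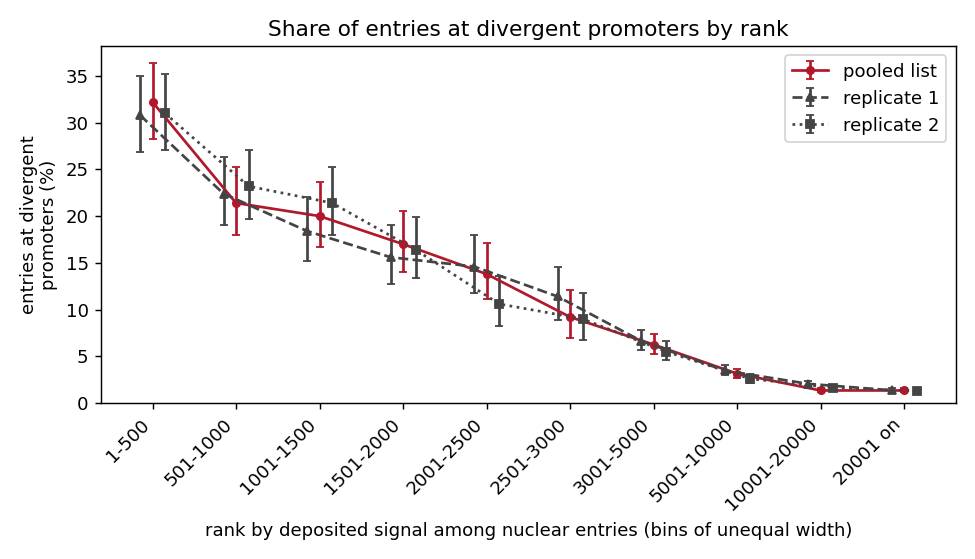
Share of nuclear entries whose summit lay at a divergent promoter (vertical axis, percent) by rank on deposited signal (horizontal axis, bins of unequal width), for the pooled list and each replicate list, with bars for Wilson 95% intervals over entries. All 3 lists start between 30.8% and 32.2% and end between 1.30% and 1.36% in the last bin.

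Divergent peaks were also the higher ranked of the promoter peaks. Their median pooled rank was 1120.0 (quartiles 475.5 and 1860.5, range 9 to 3039), against 1431.5 for one-strand peaks and 1838.0 for peaks outside promoters. The order was the same in each replicate, with medians of 1128.5, 1433.0 and 1764.0 in replicate 1 and 1097.0, 1367.0 and 1826.0 in replicate 2. In the pooled list 263 of the 571 (46.1%) ranked within the first 1000, against 36.2% of one-strand peaks, a difference of 9.90 percentage points (Newcombe 95% interval 4.97 to 14.8). Within the stronger 50% of thresholded peaks this difference was 4.92 points (−1.08 to 10.7) and its interval held 0.

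Of the 571, 508 overlapped one of the 3013 strongest nuclear entries of replicate 1, 527 one of replicate 2, and 470 (82.3%, interval 79.0 to 85.2) overlapped both. For one-strand peaks the share with both was 74.2%, a difference of 8.09 points (3.95 to 12). Between peaks of like rank the shares were close. Split by rank into 4 equal groups of nuclear peaks, in the strongest group 100% of divergent and 99.7% of one-strand peaks were shared, in the second 97.4% and 96.1%, in the third 69.9% and 67.4%, and in the weakest 24.1% and 22.0%. Divergent peaks were 29.0% of the strongest group and 10.5% of the weakest. Only 6 of the 571 were among the strongest entries of neither replicate, and 1 had no entry at all in replicate 1 and 8 had none in replicate 2. The thresholded list was made from these replicates, so the overlaps are not independent of it.

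**Figure D2:**
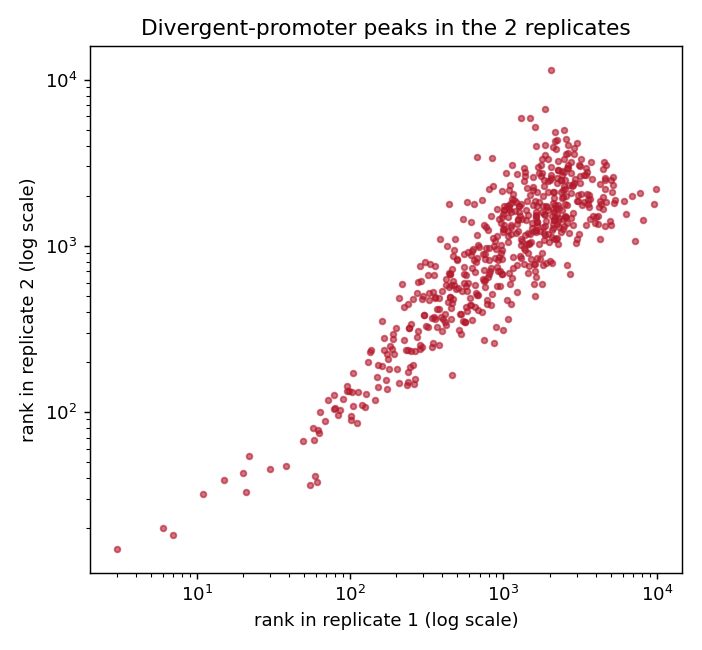
Rank by deposited signal of the overlapping entry in replicate 1 (horizontal, log scale) and replicate 2 (vertical, log scale) for the 562 divergent peaks with an entry in both; each point is 1 peak. The strongest peaks lie close together along the diagonal, and the scatter widens towards the weak end.

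Position between the paired starts was described next. The median distance between the nearest plus-strand and minus-strand starts was 476.0 bp (quartiles 310.5 and 731.0, longest 1659 bp), and 3 pairs had overlapping starts. In 531 cases (93.0%, interval 90.6 to 94.8) the summit lay between the starts, and in 40 it lay just past one, 19 past the plus-strand start and 21 past the minus-strand start. The window reaches 1000 bp upstream but only 200 bp downstream, so this share is partly set by the rule. Densities per Mb on either side of the start are given below. The median distance to the nearer start was 143.0 bp and to the farther one 323.0 bp. For one-strand peaks the median distance to the nearest start was 250.5 bp. The nearer start of a divergent peak is the closer of starts on both strands, which shortens its distance by construction. One-strand peaks have no such start on the other strand, so the medians of 143.0 and 250.5 bp were not measured alike. Neither strand was favoured, with 293 summits nearer the plus-strand and 278 nearer the minus-strand start.

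Density peaked at 100 to 200 bp upstream of the nearest start in both kinds of promoter. There it was 709.8 summits per Mb (exact Poisson 95% interval 616.4 to 813.4) at divergent promoters and 161.7 (142.5 to 182.6) at one-strand promoters. It was 464.5 against 79.6 within 100 bp upstream and 434.0 against 138.9 at 200 to 300 bp. Just past the start it fell to 87.5 against 31.1, and at 100 to 200 bp past it to 19.2 (7.06 to 41.9) against 15.6 (10.2 to 22.9), intervals that overlap. A base in a divergent promoter has 2 starts near it. Adding the one-strand densities at both of its distances gave 275.2 summits over all divergent sequence, and 571 were observed, 2.07 times as many, in a count chosen after the data were seen. Some annotated starts are splice acceptors rather than sites where transcription begins, and the sum makes no allowance for them. What the excess reflects was not tested.

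**Figure D3:**
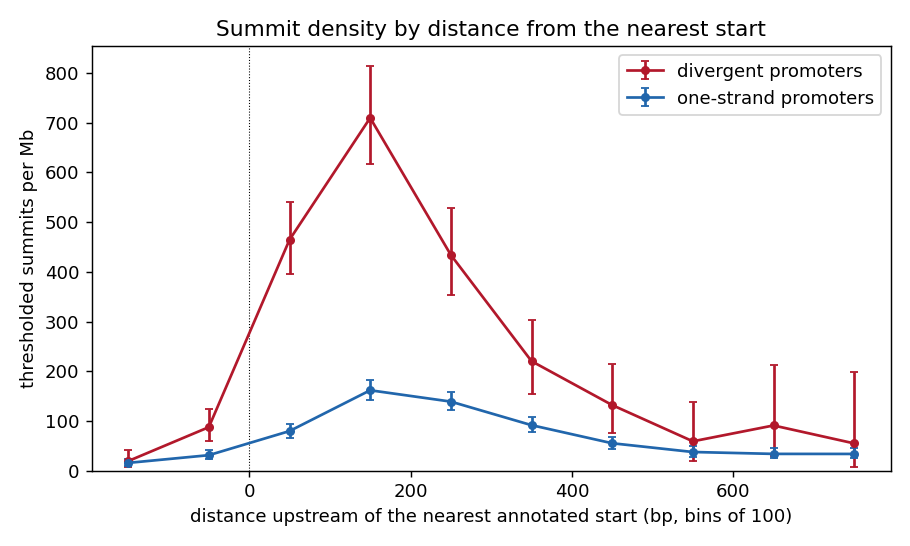
Thresholded summits per Mb (vertical) by distance upstream of the nearest annotated start in bins of 100 bp (horizontal, negative values lie inside the gene), for divergent and one-strand promoter sequence, with exact Poisson 95% intervals. Both curves are highest at 100 to 200 bp, where the divergent curve reaches 709.8 and the one-strand curve 161.7.

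With the interval between starts split into 3 equal parts, the middle part held 251 of the 531 summits (47.3%, interval 43.1 to 51.5). The share depended on spacing. It was 57.3% (50.5 to 63.8) of 206 summits between starts 251 to 500 bp apart, 32.8% (22.6 to 45) of 64 between starts at most 250 bp apart, 43.7% of 213 at 501 to 1000 bp and 39.6% of 48 beyond that. In the widest class the median distance to the nearer start was 370.5 bp, against 126.0 bp in the 251 to 500 bp class. A peak had to lie within 1000 bp upstream of both starts, which keeps summits in the widest class away from either start. Both values for that class are thus partly set by the rule.

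**Figure D4:**
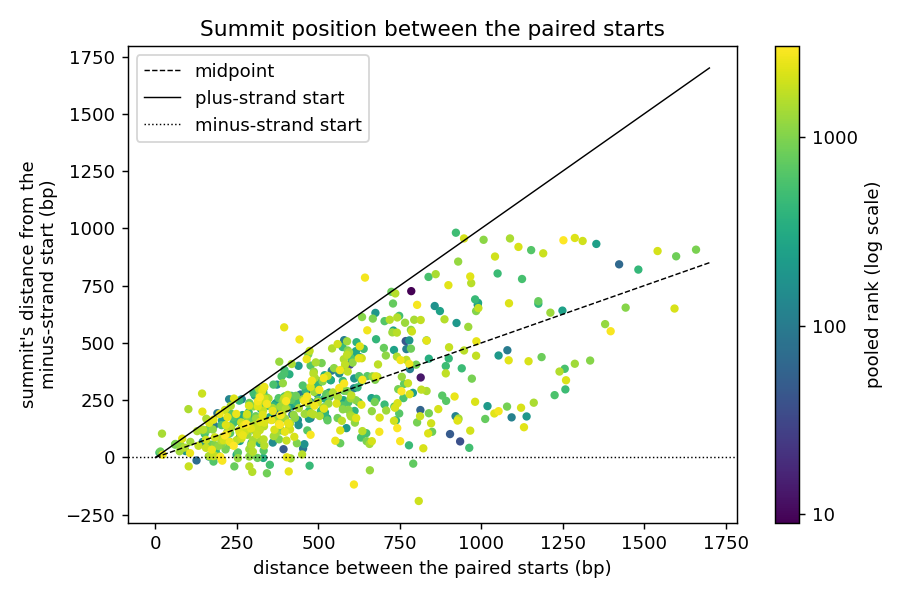
Distance of each summit from the minus-strand start (vertical, bp) by distance between the paired starts (horizontal, bp) for 568 peaks, the 3 pairs with overlapping starts left out; colour gives pooled rank on a log scale. Points gather around the dashed midpoint line most at 251 to 500 bp, where 57.3% of summits between the starts lay in the middle part, against 32.8% at shorter spacing.

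Most divergent promoters had no peak. Merging the windows gave 2770 divergent regions, of which 562 (20.3%, interval 18.8 to 21.8) held a thresholded summit and 983 any pooled entry. A single summit was found in 553 and 2 in each of 9, of which the first by position are dnj-28 / supr-1, sld-2 / larp-5 and rpl-41.1 / M04F3.5. The share varied with spacing. It was 39.9% (35.9 to 44.1) of 544 regions with starts 251 to 500 bp apart, against 22.0% at 1 to 250 bp, 25.9% at 501 to 1000 bp, 8.33% at 1001 to 1500 bp and 0.826% at 1501 to 2000 bp. Regions differ in width, since only the overlap of the windows counts. Per Mb of such sequence there were 481.8 summits at 251 to 500 bp, 340.2 at 1 to 250 bp and 246.3 at 501 to 1000 bp.

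By chromosome, 31.7% of divergent regions on III and 27.1% on I held a summit, against 19.0% on IV, 16.9% on II, 14.2% on V and 13% (8.92 to 18.7) on X. X differed from the autosomes together by −7.76 percentage points (−12.2 to −1.93). With windows of 500 bp upstream to 100 bp downstream the difference was −4.69 points, and with the stronger 50% of peaks −4.92, and both intervals held 0. Per Mb of divergent sequence X had 205.6 summits, more than V with 184.9, and the other autosomes had 237.6 to 416.5. X also had few such regions, 184 of 2770, and its 24 divergent peaks were 11.0% (7.51 to 15.9) of its promoter peaks, against 31.3 to 39.2% on the autosomes.

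The strongest divergent peak ranked 9 in the pooled list, 3 in replicate 1 and 15 in replicate 2. It lay at III:10759068-10759413, 59 bp upstream of tasp-1 (WBGene00010480), which encodes a homologue of the taspase protease, and 726 bp upstream of K01G5.10. Next came a pair of ribosomal protein promoters. The peak between K11H12.8 and rpl-15 (WBGene00004427, IV:654765-655068) ranked 7 and 18 in replicates 1 and 2, and that between Y17G9B.5 and rpl-20 (WBGene00004432, IV:4749914-4750237) ranked 6 and 20. The peak at III:13643594-13643881 was nearly centred, 178 bp upstream of set-16 (WBGene00011729), a histone H3 lysine methyltransferase gene of the MLL type, and 168 bp upstream of drr-2 (WBGene00011730), a translation initiation factor gene. It ranked 11 and 32. In both replicates all 4 were among the first 32 entries.

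Of the 20 strongest divergent peaks, 7 more have a translation gene on at least 1 side, and 6 of them are described here. The peak between hsr-9, whose product resembles the DNA damage protein 53BP1, and rps-19 ranked 15 and 39. That between F54C9.14 and iff-2, an eIF5A gene, ranked 20 and 43 and lay 70 bp from iff-2 and 865 bp from its partner. The rps-22 / polh-1 peak is that of the first sequence above. The peak between rps-1 and ifet-1, which encodes a translational repressor, ranked 22 and 54. The peak between lin-54 (WBGene00003037) and rpl-12 (IV:13240549-13240828) ranked 38 and 47. LIN-54 is the DNA-binding subunit of DREAM, and the summit lay 357 bp upstream of lin-54 but 36 bp upstream of rpl-12, and the peak list does not say to which gene it belongs. The peak between ekl-4, a DMAP1 homologue gene, and rps-20 ranked 61 and 38.

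Other strong pairs joined genes of metabolism, folding, division and signalling. A peak 102 bp upstream of Y71H2AM.20 and 802 bp upstream of nduc-2, a respiratory complex I gene, ranked 55 and 36. The peak between the mitochondrial chaperonin gene hsp-60 and Y22D7AL.10 ranked 59 and 41, and that between cct-1, a cytosolic chaperonin subunit gene, and mig-5, a Dishevelled gene of Wnt signalling, ranked 63 and 74. The kinetochore gene kbp-4 and the GTPase gene rab-18 start 126 bp apart, and the summit (ranks 58 and 68) lay 13 bp past the rab-18 start. At atp-1, the ATP synthase alpha subunit gene, and mcrs-1 the summit (ranks 64 and 99) lay 3 bp past the atp-1 start. The remaining 4 of the 20 lay at K04G7.1 / syf-2 (splicing), tag-340 / nhl-2 (a TRIM-NHL protein), scpr-1 / gpap-1 and F25H2.6 / ndk-1 (a nucleoside diphosphate kinase), with replicate ranks from 21 to 88.

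Genes were then counted by function. The annotation holds 19973 protein-coding genes. A thresholded summit lay in the promoter window of 11.6% of them, and at a divergent promoter of 5.86%. Of the 5656 genes with a divergent region, 1171 (20.7%, interval 19.7 to 21.8) had a divergent summit, which is the background for the counts below. A peak counts for both of its genes, so a gene of a list can be counted through its neighbour's promoter, and the lists were chosen with earlier results of these data known.

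Cytosolic ribosomal protein genes had the highest share of the 20 lists. Of 53 cytosolic ribosomal protein genes with a divergent region, 44 (83.0%, interval 70.8 to 90.8) had a divergent summit. For mitochondrial ribosomal proteins the count was 18 of 30 (60%), led by the peak between mrpl-37 and lin-38, which ranked 172 and 156, and by that between mrps-7 and Y57G11C.3. For translation factors and aminoacyl-tRNA synthetases it was 18 of 36 (50%), among them eef-1A.1, the elongation factor gene that faces the clamp loader gene rfc-4 (ranks 101 and 89).

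Nuclear gene-expression machinery had high counts as well. Splicing genes had divergent summits in 23 of 34 cases (67.6%), such as prp-19 and prp-8, core splicing factor genes, at pooled ranks 191 and 274. RNA polymerase, Mediator and TAF genes had them in 13 of 21 (61.9%), led by taf-4 (pooled rank 199) and mdt-19 (211). In 2 of these cases the partner was nearer: one summit lay 631 bp from prp-19 but 44 bp from K10D2.5. Another lay 795 bp from mdt-19 but 224 bp from apb-1. Nuclear pore and transport genes had them in 12 of 25 (48.0%). The nucleoporin gene npp-3 shares its peak, at ranks 149 and 163, with top-2, the topoisomerase II gene.

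Chaperone genes had a divergent summit in 20 of 33 cases (60.6%) and proteasome genes in 12 of 24 (50%). The peak between rpn-3, a proteasome subunit gene, and hsp-110 counts in both lists and ranked 111 and 86. The proteasome subunit gene pbs-1 faces K08D12.3, with ranks of 322 and 326. Vacuolar sorting and autophagy genes had divergent summits in 9 of 21 cases (42.9%), such as vps-32.1 (ranks 239 and 174), ER-Golgi trafficking and small GTPase genes in 14 of 34 (41.2%), and respiratory chain and ATP synthase genes in 17 of 42 (40.5%). In the trafficking list the peak between trap-3 and sec-61.B, genes of protein entry into the endoplasmic reticulum, ranked 78 and 127.

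Cell cycle and DNA replication genes had divergent summits in 16 of 34 cases (47.1%). Of 8 DREAM and synMuv B genes with a divergent region, 4 had one: lin-54, lin-53, efl-1 and lin-35. The peak between lin-53, a histone-binding protein gene, and nra-2 ranked 103 and 131. That of efl-1, an E2F factor gene, lay 179 bp upstream of it and 960 bp from fbxa-90 and ranked 177 and 208. That between lin-35, the worm retinoblastoma gene, and vps-51 ranked 225 and 271. The interval for 4 of 8 was wide, 21.5 to 78.5. Its lower end lay just above the background of 20.7%, and inside the background's own interval of 19.7 to 21.8.

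Histone genes stood near the background, with 13 of 68 (19.1%, interval 11.5 to 30). The highest ranked was htz-1, the H2A.Z variant gene, which faces wapl-1, a cohesin release factor gene, at ranks 83 and 96. In 6 peaks both genes were histone genes, from his-68 / his-67 (ranks 190 and 273) to his-41 / his-35 (4599 and 2491). Replicative histone genes exist in near-identical copies, so these positions are uncertain.

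Of the remaining lists, 4 had shares whose intervals lay below the background. Divergent summits were found for 2 of 41 cuticle collagen genes (4.88%), 7 of 297 chemoreceptor genes (2.36%), 2 of 81 C-type lectin genes (2.47%) and 3 of 46 nuclear hormone receptor genes (6.52%). The intervals for 1 of 17 neuropeptide and insulin genes (5.88%, 1.05 to 27) and 2 of 11 homeobox genes (18.2%, 5.14 to 47.7) held the background. Some of these share their peak with a widely used gene. The collagen gene col-38 faces rpl-5, at pooled rank 344, and nhr-47 faces the co-chaperone gene dnj-19, at 522. Others have a different kind of partner. The receptor gene nhr-142 (426) and the collagen gene col-71 (685) face F44E7.9 and Y49F6B.2, known by sequence name alone. The lectin gene clec-57 faces a chemoreceptor gene, at 2471. The homeobox gene ceh-38 faces malt-1, at replicate ranks 112 and 132, with the summit 28 bp past the ceh-38 start. The neuropeptide gene nlp-4 faces exos-3, an RNA exosome subunit gene, and lay 76 bp from the summit, which ranked 1268 and 1739. For the C-type lectin gene clec-87, which faces rsa-1, the peak ranked 1715 in replicate 1 and had no entry in replicate 2.

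Both nearest genes belonged to the 20 lists in 33 of the 571 peaks, and to the same list in 12. Such pairs include rpl-24.1 / rps-10 (ranks 259 and 147) and rpl-36 / rps-14 (200 and 318), each joining a large-subunit and a small-subunit ribosomal protein gene, and rsp-1 / rsp-2 (242 and 321), a pair of SR splicing factor genes. The pair mrpl-49 / rpl-28 (367 and 324) joins a mitochondrial and a cytosolic ribosomal protein gene. At least 1 nearest gene was in a list in 216 peaks. Both nearest genes carried a gene name, rather than a sequence name alone, in 285 peaks, 1 of them in 230 and neither in 56. Like counts were not made for divergent regions without a peak, so these describe the peaks and show no preference.

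Whether a listed gene was more often bound when it had a divergent region was compared within each list, in a comparison chosen after the data were seen. Over all genes, 23.4% with a divergent region and 6.91% without one had a summit in the promoter window, a difference of 16.5 percentage points (15.3 to 17.7). Of the 20 lists, 8 had an interval above 0. The difference was 47.7 points (2.79 to 72.7) for the 19 DREAM and synMuv B genes, 44.4 (19.2 to 62.2) for chaperones, 40.9 (14.9 to 60.9) for RNA polymerase, Mediator and TAF genes, 40.8 (17.5 to 58.8) for mitochondrial ribosomal proteins and 39.1 (11.9 to 58.9) for splicing genes. It was 27.5 points (0.292 to 49.8) for vacuolar sorting and autophagy genes, 16.8 (2.35 to 46.3) for homeobox genes and 2.06 (0.722 to 4.50) for chemoreceptors. For cytosolic ribosomal proteins it was 13.7 points (−3.01 to 33.0), with a summit at 88.7% of those with a divergent region and 75% of the others. Respiratory chain genes gave −8.93 points (−31.7 to 15.2), proteasome genes −1.39 (−33.3 to 32.6) and histones 2.10 (−25.4 to 20), and these intervals are wide. A gene with a divergent region can be counted through its partner, so the 2 groups of genes were not counted alike.

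**Figure D5:**
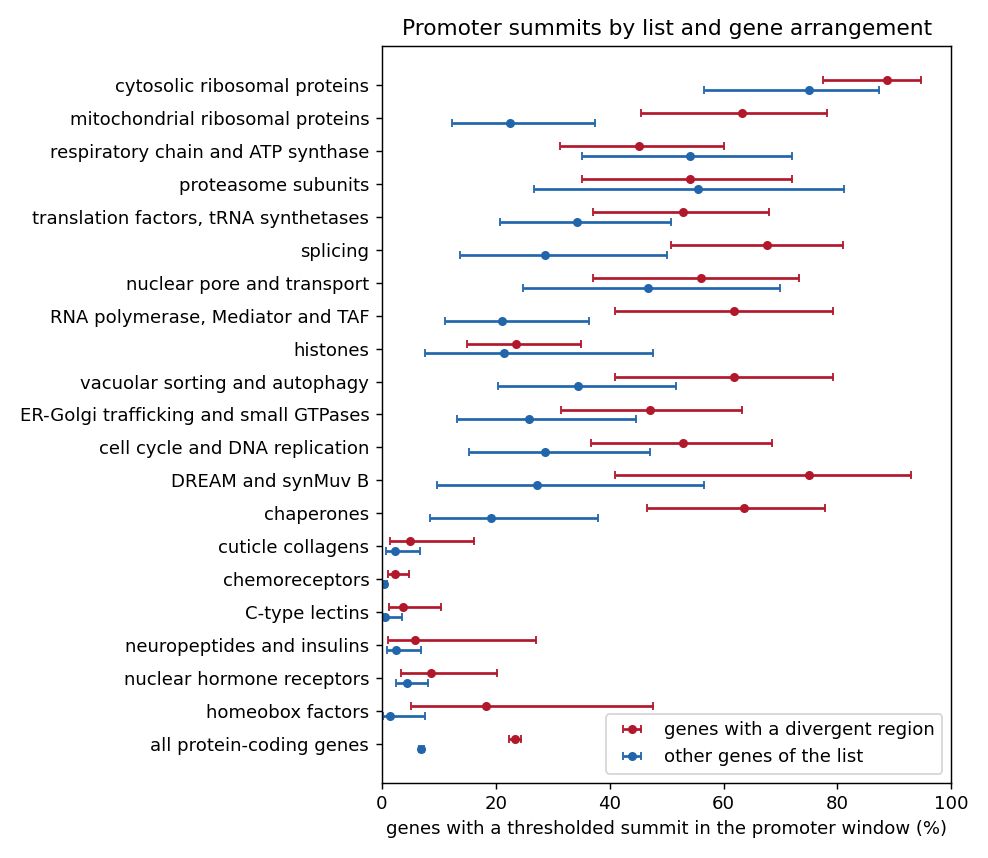
Percentage of the genes of each list with a thresholded summit in the promoter window (horizontal), for genes with a divergent region and for the list's other genes, with Wilson 95% intervals over genes. Chaperone, splicing, polymerase and mitochondrial ribosomal protein genes show intervals that do not overlap, and respiratory chain and proteasome genes show overlapping ones.

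Sequence was compared within 75 bp of each summit. Mean GC content was 42.3% (SD 7.25) at divergent summits and 43.5% (SD 7.62) at one-strand summits. The middles of divergent regions, a position fixed without the summits, averaged 36.1% (SD 7.98) in the 562 regions with a summit and 34.0% (SD 7.27) in the 2208 without. At least 50% of the bases were soft-masked, the mark the reference uses for repeated or simple sequence, at 145 divergent summits (25.4%) and at 12.7% of one-strand summits, a difference of 12.7 points (8.71 to 16.8). Region middles were masked in 33.8% (30 to 37.8) of the 562 divergent regions with a summit and 31.1% (29.2 to 33) of those without.

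Motifs were searched as exact letters on both strands, and a match does not show that a factor bound. Regions with and without a summit were compared at their middles, a position fixed without the summits. The 2 sets differ in spacing, since 39.9% of regions with starts 251 to 500 bp apart held a summit and 0.826% at 1501 to 2000 bp. A middle can thus lie farther from any start in regions without a summit. The letters CTGCGTCTC occurred at 41 divergent summits (7.18%) and at 12.9% of one-strand summits (difference −5.71 points, −8.47 to −2.69). At region middles they occurred in 3.02% (1.90 to 4.79) of regions with a summit and 0.679% (0.412 to 1.12) of those without. The GAGA letters GAGAGAGA were likewise rarer at divergent than one-strand summits, 3.33% against 7.44% (difference −4.11, −6.15 to −1.84). The palindrome TTCGAA, a form of the cell-cycle element CHR, went the other way, 16.6% against 10.6% (difference 6.0, 2.58 to 9.66). At region middles its shares were 14.6% (11.9 to 17.7) with a summit and 10.1% (8.87 to 11.4) without. In the stronger 50% of peaks its difference was 3.48 points and the interval held 0. The plain CHR letters TTTGAA were found at 34.9% of divergent and 30.3% of one-strand summits, and at 36.8% of middles with a summit and 42.7% without. For the run TTTTTTTT the same 4 shares were 11.9%, 9.26%, 15.7% and 17.6%.

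The E2F-like letters GCGCGAA occurred at 39 divergent summits (6.83%) and 4.07% of one-strand summits. The difference, 2.76 points (0.550 to 5.34), fell to between 0.739 and 2.01 points, with intervals that held 0, in 5 alternatives. At region middles they occurred in 3.38% (2.17 to 5.22) with a summit and 1.27% (0.879 to 1.83) without. The longer form TTCCCGCC was rare, 0.525%. For the GATA letters TGATAA the shares at divergent summits, at one-strand summits, and at middles with and without a summit were 5.78%, 8.39%, 12.5% and 15.3%. For the E-box CACGTG they were 3.68%, 5.10%, 2.67% and 2.90%, and for the Sp1-like CCCGCCC 2.80%, 2.42%, 1.78% and 0.861%. These sets differ in GC content, and those of middles also in the spacing of starts, as given above. The part of either in these shares was not tested.

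Under the summit itself, 524 divergent peaks (91.8%) lay between genes, 34 (5.95%) in untranslated exon sequence, 7 in coding exons and 6 in introns, against 84.6% between genes and 6.66% in introns for one-strand peaks. Starts that directly follow TTTCAG, the letters of the trans-splice acceptor, belonged to 285 of the 1171 genes with a divergent summit (24.3%, interval 22.0 to 26.9). The share was 25.5% for genes with a one-strand summit only and 12.3% over all protein-coding genes. It was 9.72% (8.89 to 10.6) for genes with a divergent region but no divergent summit. In 29 peaks both paired starts followed these letters, in 222 one did and in 320 neither. For such genes the distance from the summit is measured from the acceptor. A tRNA gene started within 200 bp of 4 divergent summits (0.701%) and of 34 one-strand summits (2.94%), and snoRNA genes of 4 (0.701%) and 25 (2.16%). These counts were chosen after the data were seen.

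The limit of the window decided a few memberships. Just inside it, the summit between T20D3.5 and T20D3.14 (IV:9335866-9336215) lay 999 bp from the farther start. The summit at ehbp-1 and nstp-10 lay 998 bp upstream of ehbp-1 and 190 bp past the nstp-10 start, so it was near the downstream limit as well. Just outside, the summits near T10E9.8 and nasp-2 lay 1004 and 1009 bp from the farther start and count as one-strand peaks.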

How the data were processed

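Per the labels, the ChIP-seq libraries came from 2 biological replicates of 1 group and covered fragments of 150 to 350 bp. The deposited lists, on ce11, are those of each replicate, of the pooled replicates and the thresholded list, and per the file listings the thresholded list came from the irreproducible discovery rate step. The sources used here name no aligner, peak caller, version or threshold. The deposited signal per entry has no stated scale, so it served only for ranks within 1 list. The deposited −log10 q value was not used for selection. The lists hold no counts, so depth is unknown.

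All 3013 nuclear thresholded entries were found in the pooled list with the same rank, and 27 mitochondrial entries were left out. Summits were placed against Ensembl release 115 protein-coding gene models on WBcel235, with coordinates 1-based, and 0 entries ran past a chromosome end. Overlap of a peak with a replicate entry required at least 1 bp, and peaks that lie close together can meet the same entry. Divergent regions were the merged overlap of plus-strand and minus-strand windows. Shares have Wilson intervals, differences Newcombe intervals and densities exact Poisson intervals, all at 95%. They cover counting error over peaks, regions or genes, which are not replicates. With 1 group and no control list, no comparison of conditions and no p-value is given.

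The members, lists and motifs were chosen with earlier results of these data known. After results were seen, names of respiratory chain genes were added to the respiratory list, and wrong matches were removed from the chemoreceptor and cell cycle lists. Genes named come from the 20 strongest divergent peaks, the 2 strongest of each list, up to 10 peaks with both genes in lists, the first 3 by position of the 9 regions tied at 2 summits, and the pairs nearest the window limit. Not all that this rule picks are named. The chemoreceptor genes are given as counts alone. The DREAM genes efl-1 and lin-35 and the weakest histone pair were named after their values were seen, as were partners of named genes. Shown sequences follow a rule on start distance, and 1 peak that the rules pick is not reported here. Alternatives were other windows, every transcript start, the stronger 50% of peaks, each replicate's own strongest entries, 1 summit per interval, other overlaps and other motif windows. The classification gave the right kind for 1200 of 1200 genome positions drawn from each kind of sequence by the same window rule. For the motif search, 1 motif, CTGCGTCTC, was written into 200 random sequences and found in 200 of them. Both checks show only that the code follows its rules. Python 3.11.15, numpy 2.4.6, pandas 2.3.3, scipy 1.17.1 and matplotlib 3.10.9 were used.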

Additional observations from a re-analysis of the deposited data

How the results depend on the processing

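No paired analysis was possible because the design has 1 group. Each value below is for divergent peaks, and the cause of a change was not tested unless the alternative's own construction shows it.

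With windows of 500 bp upstream to 100 bp downstream, they were 13.8% of nuclear and 28.9% of promoter peaks, 23% of regions held a summit at 625.7 per Mb, starts were 387.0 bp apart, the nearer start was 128.0 bp away and mean GC was 41.76%. With 2000 bp upstream to 500 bp downstream, the values other than the share of regions were 26.5%, 38.4%, 122.7 per Mb, 616.0 bp, 168.0 bp and 42.77%, the median pooled rank was 1171.0 and 90.0% lay between the starts. In the stronger 50% of peaks the values were 24.5% of nuclear and 36.9% of promoter peaks, 13.3% of regions, 176.3 per Mb, median rank 631.0, nearer start 149.0 bp and mean GC 43.96%. With every transcript start, starts were 485.0 bp apart and the nearer one 147.0 bp away. With the strongest entries of 1 replicate standing in for the thresholded list, median rank was 1065.5 to 1106.0, starts were 485.0 bp apart and the nearer start was 142.0 to 142.5 bp away. Mean GC was 45.86% within 50 bp and 36.72% within 150 bp, and 45.7% and 87.7% of summits had any of the motifs, against 65.8%.

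The share of divergent peaks in both replicates was 98.9% in the stronger 50% and 98.4% against any entry of the full lists. Its difference from one-strand peaks was 4.22 points with the narrow window and 0.979 in the stronger 50%, with intervals that held 0, and −0.192 against any entry. These results have no value from 1 replicate alone. The difference in ranks within 1000 was 4.92 points in the stronger 50%. Differences from one-strand summits that changed sign were those of the T run (−0.0250 within 50 bp) and the Sp1-like letters (−0.465 in the stronger 50%, −0.244 to 0.446 from 1 replicate, −0.00953 with every transcript start, −0.0653 within 50 bp and −0.299 within 150 bp), and their main intervals held 0. The difference in masked sequence kept its sign and an interval above 0 in every alternative run. Unknown depth limits what a missing peak means.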

Other observations

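The 24 divergent peaks on X included none of the 20 strongest. They are a small part of the 571, so few of any 20 would be expected there. The highest ranked lay at X:768065-768414, 356 bp upstream of ile-2, a lectin of the early secretory pathway, and 171 bp upstream of trap-2, with ranks of 207 in replicate 1 and 484 in replicate 2. The peak between asg-2, an ATP synthase subunit gene, and glr-6, a glutamate receptor gene, ranked 223 and 430. That between glit-1 and dnj-14, a co-chaperone gene, ranked 354 and 372. The peak at cdk-4, a cyclin-dependent kinase gene that faces F18H3.1, was among the weaker ones, at 2095 and 3936. These genes were named after their values were seen.

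In 9 gene pairs 2 summits were counted, and in 5 of them both summits met the same entry in each replicate. Between mut-15, an RNA interference gene, and fib-1, the fibrillarin gene, the summits ranked 321 and 3034 in the pooled list, while the 1 entry they meet ranked 304 in replicate 1 and 383 in replicate 2. Starts overlapped in 3 pairs. At rpb-7, an RNA polymerase II subunit gene whose start lies just past that of Y54E10BR.2, the peak ranked 2313 and 1288.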
